A study of Mus musculus with 25 samples.

Results

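The response of mouse muscle 6 hours after eccentric contraction was described across genes. Its members are the 3 arrays labelled contraction at 6 hours, numbered 417, 431 and 445, which were set against the 3 arrays of uninjured control muscle, numbered 1, 2 and 3. These 6 are part of 25 arrays in 9 groups. The tissue was tibialis anterior, a fast muscle beside the shin that lifts the foot. The mice were C57BL/6J females aged between 2 and 3 months. Injured muscles had performed 150 eccentric contractions in vivo, in which a muscle is stretched while it is active. The controls were left uninjured. Used for comparison were 3 arrays of muscles frozen with a steel probe 6 mm wide at dry ice temperature for 10 s and taken at 6 hours, numbered 418, 432 and 446, and 2 arrays taken 1 day after contraction. All animals of these groups were of the same strain and sex, and the labels name no transgene or drug. Whether any samples came from 1 animal is not stated in the labels. The p-values therefore reflect only how much these samples vary, and some of that variation may be technical. All injured samples carry numbers in the 400s and the controls the numbers 1 to 3, so handling that went with these numbers cannot be told apart from injury.

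Of 12488 probe sets, 10833 had 1 gene symbol, for 8251 genes. After a filter on dim probe sets 9506 were tested, of which 8488 had 1 symbol and covered 6919 genes. Values are MAS5 signals, the brightness of a probe set on a linear scale that the authors had set to a common level on every array. Signals of an injured or control group are given in the order of the array numbers above. Differences are log2 values of signal plus 13 units, contraction minus control, with the SE of a limma fit over all arrays, and p-values from it are adjusted by Benjamini-Hochberg over the 9506 probe sets. The threshold for a call was an adjusted p below 0.05. Adding 13 units understates the change of dim genes.

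Stretching an active muscle overloads some sarcomeres, opens the fibre membrane and lets calcium in. A muscle fibre meets protein damage with heat shock chaperones, which bind unfolded protein and are switched on within minutes by the transcription factor HSF1. Stretch and calcium also switch on immediate early genes, whose transcription needs no new protein, and fibres and resident cells release chemokines that draw in leukocytes over the following hours and days.

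The tissue label was checked on fibre markers. All 16 tested markers of skeletal muscle fibres had high signals, which summed to between 150417 and 213739 on the contraction arrays and between 150819 and 232241 on the control arrays, and none was called. In such bulk samples fewer cells of a type and less RNA per cell cannot be told apart. Pairs of arrays correlated across genes at r = 0.942 to 0.956 within contraction at 6 hours. The ratios of 3′ to 5′ actin probe sets, a sign of RNA integrity, were 0.572 to 0.669 on the contraction arrays and 0.560 to 0.595 on the control arrays. On freeze arrays 418, 432 and 446 they were 0.797, 0.657 and 0.955, and among the contraction arrays array 431 had the highest, 0.669. The part of these ratios in the comparison with freezing was not tested. One array of another group, freeze at 3 days 436, lay apart from its group, and it enters the estimate of the spread that all groups share. Leaving it out raised the calls for contraction against control to 319 probe sets, against 178 with it.

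Array 431 stood apart among the contraction arrays in genes lower after contraction than after freezing, and array 432 among the freeze arrays of the same time. Both lay between the injuries. For this description genes were chosen on the other 4 arrays of the 2 groups. Of 150 genes at least 2-fold lower on contraction arrays 417 and 445 than on freeze arrays 418 and 446, array 431 lay above both other contraction arrays for 138 and array 432 below both other freeze arrays for 131. The median position of array 431 was 46.3% of the way on the log2 scale to the freeze level, and that of array 432 was 58.1%. Of 54 genes at least 2-fold higher on arrays 417 and 445, array 431 lay below both for 41 and array 432 above both freeze arrays for 51. Their median positions were 28.1% and 26.3% of the way to the freeze level, so that array 432 lay nearer to contraction in these genes. A pair left out of the choice tends to lie inside the gap that chose the genes, so the same was done for the other adjacent pairs. Without arrays 417 and 418 the choice left 21 genes lower after contraction. Array 417 lay beyond its group towards freeze for 14 and array 418 beyond its group towards contraction for 12. Their median positions were 25.2% and 83.9%. The choice also left 10 genes higher, with counts of 7 and 9 and positions of 83% and 52.1%. Without arrays 445 and 446 it left 18 genes lower, with counts of 8 for array 445 and 9 for array 446, at 4.18% and 80.9%. It left 12 genes higher, with 9 and 8, at 62.5% and 39.5%. In genes higher after contraction arrays 417 and 445 thus lay further towards freeze than array 431, though over fewer genes. Over all genes tested array 431 correlated at r = 0.950 with freeze array 432, 0.956 with contraction array 417 and 0.942 with contraction array 445. Both arrays were kept in their labelled groups, what placed them there was not tested, and results that rest on them are given with and without them.

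At 6 hours after contraction more transcripts passed the threshold as higher than as lower. Of the 9506 probe sets 178 were called, 1.87%. In the 6 arrays 155 were called higher, 1.63% of those tested, and 23 lower, 0.242%. By gene, 118 rose, 1.71% of the genes tested, and 21 fell, 0.304%. The rises were large, with a median of 2.04 on the log2 scale, and 60 of them were at least 4-fold and 15 at least 16-fold. The falls were small, with a median of -1.11, and none reached 4-fold. The median over all genes tested was -0.08. In all 118 genes that rose and all 21 that fell the contraction arrays did not overlap with the controls. Over all genes tested that held for 6.59% with higher and 11.1% with lower values after contraction. At an unadjusted p under 0.05 there were 343 genes higher and 448 lower, and 2793 of the 6919 differences were positive. Without array 431, 90 genes were called higher, of which 87 were among the 118, and 11 lower, of which 7 were among the 21.

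**Figure D1:**
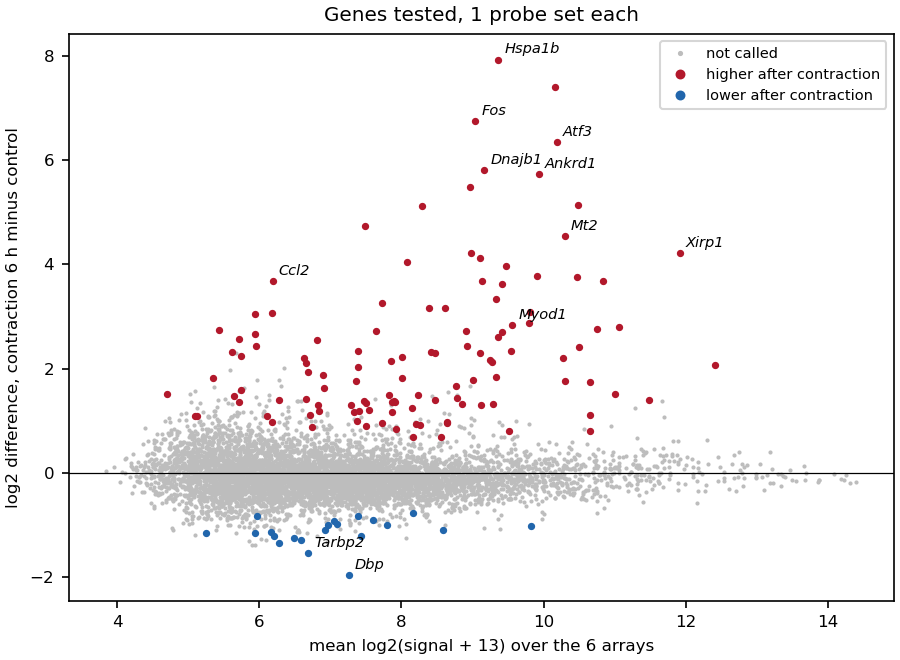
Log2 difference between contraction at 6 hours and uninjured control (vertical axis) against the mean of log2(signal + 13) over the 6 arrays (horizontal axis), 1 point per gene tested, 6919 in all. Red points are the 118 genes called higher after contraction and blue points the 21 called lower. Rises reach 7.94, while no fall exceeds 1.97.

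Genes of the Hsp70 system rose, led by Hspa1b and Hspa1a, which had the largest differences of all genes called. Of 24 tested members of the list of Hsp70 chaperones and co-chaperones 10 rose and none fell, while 14 were not called and the list's median was 0.18. Without array 431 the same 10 were called. The summed signal of the 24 was 47107 to 58533 on the contraction arrays and 9215 to 10090 on the control arrays. The inducible Hsp70 gene Hspa1b gave signals of 10291, 9623 and 10953 after contraction, against 36.4, 41.1 and 14.5 in controls. Its near twin Hspa1a gave 12629, 13031 and 20109 after contraction, against 111.6, 45.2 and 80.2 in controls. The contraction arrays thus lay far above every control for both genes, with differences of 7.94 ± 0.67 (adjusted p = 4.09e-08) and 7.41 ± 0.55 (adjusted p = 5.93e-09, limma). Their transcripts are so alike that probe sets may share signal, and the split between the twin genes is uncertain.

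Co-chaperones of the Hsp40 class, which hand unfolded protein to Hsp70, also rose. Dnajb1 gave 5870, 3607 and 3761 after contraction, against 64.8, 66.4 and 58.8 in controls. Dnajb4 gave 2768, 1934 and 2230 after contraction, against 140.9, 187.1 and 62.7 in controls, a difference of 4.12 ± 0.51 (adjusted p = 1.56e-05, limma). Dnaja1 gave 4089, 2825 and 3884 after contraction, against 245.0, 206.2 and 296.9 in controls. No contraction array came near a control array in any of the 3 genes. Hspa8, the constitutive Hsp70 of the cytosol, was already abundant, with 1460, 2336 and 1539 in controls, and reached 5496, 4206 and 4272 after contraction, a difference of 1.40 ± 0.27 (adjusted p = 0.00442, limma).

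Specialised members of the same system behaved differently from one another. The Hsp110 exchange factor Hsph1 differed by 2.34 (adjusted p = 5.64e-06), and Bag3, which directs damaged filamin to autophagy at the Z-disc, by 2.80 (adjusted p = 0.000297, limma). The mitochondrial Hsp70 Hspa9 differed by 0.01, the co-chaperones Dnaja2 and Dnajb6 by -0.15 and -0.35, and none of these 3 was called.

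In the list of Hsp90, small heat shock proteins and chaperonins 5 of 18 tested members rose and none fell, with a median of 0.58. Without array 431, 6 were called, of which 4 were among the 5. Hsp90aa1, the inducible cytosolic Hsp90, gave 11114, 4704 and 11726 after contraction, against 184.1, 211.9 and 305.5 in controls. Array 431 was the lowest of the contraction arrays, yet all lay above every control, and the difference was 5.14 ± 0.49 (adjusted p = 3.19e-07, limma). The small heat shock protein gene Hspb8, a partner of Bag3, gave 10678, 9364 and 13527 after contraction, against 2768, 2503 and 2652 in controls. Cryab, which guards desmin filaments, gave 3066, 2426 and 3387 after contraction, against 1115, 1122 and 513.8 in controls. For both genes the groups did not overlap, although a dimmer second probe set of Cryab differed by only -0.13. Hspe1, the lid of the mitochondrial chaperonin, gave 3051, 2166.4 and 2807 after contraction, against 656.5, 690.3 and 402.3 in controls, a difference of 2.20 ± 0.32 (adjusted p = 0.000151). The collagen chaperone Serpinh1 averaged 1225 after contraction and 242.7 in controls, a difference of 2.29 ± 0.51 (adjusted p = 0.0163, limma). It was not called without array 417, 431, control 1 or control 3, with adjusted p between 0.061 and 0.0878 and differences of 2.15 to 2.29. No subunit of the cytosolic chaperonin was called, and the 7 tested members of the list with a Cct symbol lay between -0.11 and 0.69.

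Of 18 tested members of the list of endoplasmic reticulum chaperones and the unfolded protein response 2 rose and none fell. The median was 0.32, 16 of the 18 differences were positive, and in 5 members all contraction arrays lay above all controls. Over all genes tested 2793 of 6919 differences were positive, and 6.59% had all contraction arrays above all controls. The summed signal was 7398 to 7573 on the contraction arrays and 4837 to 5009 on the control arrays. The 2 called members act in the arm of the response that slows translation. Ppp1r15a, which ends that block by directing a phosphatase to eIF2, gave 677.8, 737.8 and 919.5 after contraction, against 187.2, 119.0 and 139.7 in controls. Atf4, the transcription factor translated during the block, averaged 2352 after contraction and 1083 in controls, a difference of 1.11 ± 0.23 (adjusted p = 0.00712, limma), but was not called without array 431 (1.02, adjusted p = 0.0525). The lumenal Hsp70 Hspa5 gave 985.6, 941.0 and 646.7 after contraction, against 570.2, 729.3 and 615.9 in controls, so that the groups overlapped (0.40 ± 0.24, adjusted p = 0.639, limma).

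Because heat shock genes led the list, the sequence before their start sites was searched for the short form of the heat shock element, the site of HSF1. The motifs were GAANNTTC and TTCNNGAA, each of which reads the same on both strands, within 250 bases before the start, and runs of the element can hold both in overlap. Promoter sequences are those of RefSeq on GRCm38.p6, in which 12.8% of 32851 promoters held a match. Among tested genes with a promoter it was 698 of 5540, or 12.6%. Of the 118 genes that rose 92 had a promoter in the table and 23 of these held a match, 25%. None of the 17 promoters found for fallen genes did. Among the members of the first 2 chaperone lists a match was present for 6 of the 12 that rose and have a promoter, and for 5 of 24 that were not called. Matches are a description of letters and were not tested as sites. The following stretches are shown for chaperone genes that rose, with the matches in capitals. Each is written 5′ to 3′ in the direction of its gene. The pair of Hsp70 genes is shown whole because it headed the response, and the 3 others with the bases around the match. They lie at chr17:34972157-34972406 (minus strand) for Hspa1a, chr17:34959239-34959488 (minus) for Hspa1b, chr1:55088039-55088096 (plus) for Hspe1, chr5:149636342-149636389 (minus) for Hsph1 and chr4:40722324-40722371 (plus) for Dnaja1.
Hspa1a: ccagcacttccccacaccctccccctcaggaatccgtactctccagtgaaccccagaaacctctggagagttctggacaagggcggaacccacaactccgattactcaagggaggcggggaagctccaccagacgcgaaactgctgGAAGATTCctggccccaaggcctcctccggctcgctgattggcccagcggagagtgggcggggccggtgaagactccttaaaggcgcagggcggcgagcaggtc
Hspa1b: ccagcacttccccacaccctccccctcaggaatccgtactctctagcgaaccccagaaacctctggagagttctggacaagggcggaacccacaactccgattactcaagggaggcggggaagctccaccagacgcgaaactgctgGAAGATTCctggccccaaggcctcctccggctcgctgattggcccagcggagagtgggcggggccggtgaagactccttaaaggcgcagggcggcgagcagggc
Hspe1: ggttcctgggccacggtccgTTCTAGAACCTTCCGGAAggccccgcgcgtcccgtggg
Hsph1: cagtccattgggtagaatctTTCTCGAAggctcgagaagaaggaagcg
Dnaja1: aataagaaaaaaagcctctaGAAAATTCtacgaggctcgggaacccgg

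The stretches before Hspa1a and Hspa1b differed at only 3 of 250 positions, and in both the match began 104 bases before the start. Before Hspe1 the capitals hold 3 overlapping matches. Of all promoters 0.14% held 3 or more matches anywhere in the 250 bases, whether or not these overlapped. The single matches before Hsph1 and Dnaja1 began 33 and 124 bases before the start.

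Immediate early transcription factors rose as well. Of 19 tested AP-1, ATF and EGR factors 7 rose and none fell, also without array 431, and the median was 0.54. Fos, the partner of Jun in AP-1, gave 6395, 4159 and 6066 after contraction, against 44.5, 23.0 and 49.6 in controls. A second, dim probe set of Fos averaged 26.6 after contraction and 20.6 in controls and was not called. Atf3, a stress-induced repressor and activator, gave 10637, 8204 and 13198 after contraction, against 83.9, 138.4 and 132.9 in controls, and its second probe set differed by 7.02. Egr1, a zinc finger factor that answers growth signals and stretch, gave 1877, 2877 and 1496 after contraction, against 121.6, 130.0 and 186.2 in controls, a difference of 3.69 ± 0.29 (adjusted p = 1.06e-08, limma). All contraction arrays lay above all controls for these 3 genes. Fosl1, a late member of the Fos family, gave 137.9, 212.3 and 76.9 after contraction, against 10.9, 5.1 and 31.2 in controls. Jun gave 562.6, 337.5 and 546.1 after contraction, against 124.5, 113.3 and 133.3 in controls, a difference of 1.82 ± 0.28 (adjusted p = 0.000232, limma). Other members were near their control level. Fosl2 differed by 0.17, Jund by 0.54 and Egr2 by 0.48, and none was called.

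Of 22 tested members of the list of other early stress transcription factors 8 rose and none fell, and the median was 0.93. Without array 431, 4 of the 8 were called. Cebpd, a factor of the acute phase, gave 2370, 1730 and 2053 after contraction, against 274.5, 147.4 and 170.9 in controls. Klf5, which acts in muscle differentiation, gave 264.2, 242.7 and 272.7 after contraction, against 54.6, 12.4 and 46.7 in controls. Myc, the growth regulator, was dim, with 99.0, 140.4 and 63.8 after contraction, against 8.2, 17.5 and 3.5 in controls. The groups did not overlap in these 3 genes, with adjusted p of 7.47e-09 for Cebpd, 2.12e-05 for Klf5 and 0.00126 for Myc (limma). Cebpb, a relative of Cebpd, gave 1121, 1515 and 763.3 after contraction, against 692.3, 568.8 and 399.3 in controls, and was not called (1.00 ± 0.30, adjusted p = 0.121).

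Part of the genes that damp early signalling or hold back the cell cycle rose. Of 27 tested members 9 rose and none fell, also without array 431, and the median was 0.92. Rrad, a small GTPase that lowers calcium channel activity, gave 3058, 4611 and 2622 after contraction, against 56.0, 61.8 and 67.1 in controls, a difference of 5.49 ± 0.61 (adjusted p = 3.41e-06, limma). Rcan1, the calcineurin inhibitor that calcineurin itself induces, gave 5480, 5370 and 4737 after contraction, against 381.9, 379.8 and 355.9 in controls. Its contraction arrays lay close together and far above the controls, with a difference of 3.75 ± 0.23. Gadd45g, which acts in growth arrest and stress kinase signalling, gave 2962, 2077 and 2217 after contraction, against 200, 140.3 and 209.3 in controls. Ier2, a small nuclear protein of the immediate early class, gave 1080, 1015 and 875.4 after contraction, against 111.0, 101.5 and 84.1 in controls. Its group was tight as well (3.17 ± 0.20, adjusted p = 4.79e-10, limma). The relative Gadd45a gave 609.6, 758.7 and 382.9 after contraction, against 278.3, 251.3 and 212.7 in controls, and was not called (1.15 ± 0.45, adjusted p = 0.305). Cdkn1a, which encodes the cell cycle inhibitor p21, averaged 734.3 ± 151.4 after contraction and 255.3 ± 68.0 in controls (SD, n = 3 each). Its brighter probe set was not called (1.49 ± 0.40, adjusted p = 0.0629), and its second was (2.46, adjusted p = 0.0117, limma).

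**Figure D2:**
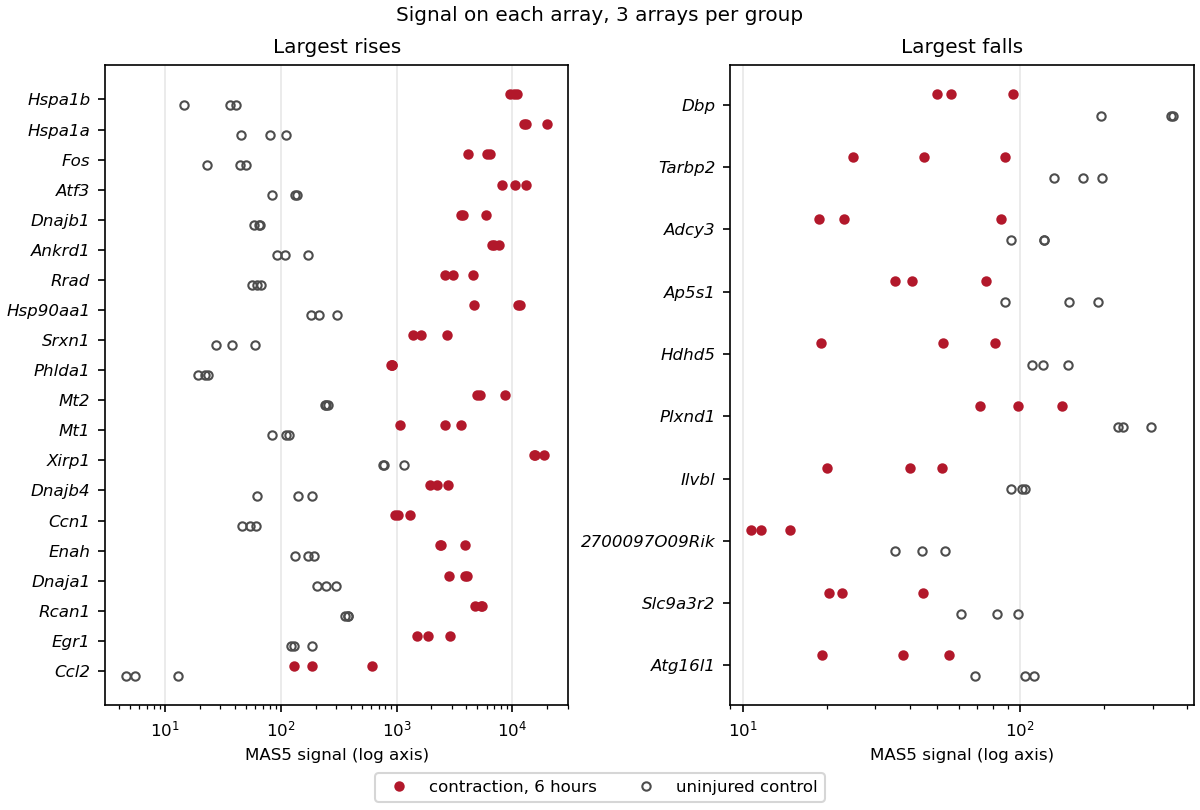
MAS5 signal on each array (log axis) for the 20 genes with the largest rise (left) and the 10 with the largest fall (right) after contraction. Filled red circles are the 3 contraction arrays and open circles the 3 uninjured controls. The groups are separated widely on the left, for Hspa1b by 9623 against 41.1 at the nearest, and narrowly on the right, for Adcy3 by 85.2 against 92.6.

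Stretch-responsive genes of the sarcomere rose strongly while no other tested member of their list was called. In this list 4 of 17 tested members rose and none fell, also without array 431, and the median was 0.38. Ankrd1, the cardiac ankyrin repeat protein that binds titin, gave 6731, 6982 and 7658 after contraction, against 92.5, 170.2 and 109.2 in controls. Xirp1, an actin-binding protein found at sites of fibre damage, gave 15439, 15721 and 18963 after contraction, against 1149, 781.8 and 763.5 in controls. Csrp3, the muscle LIM protein, gave 6794, 5253 and 7799 after contraction, against 764.5, 422.3 and 384.0 in controls, a difference of 3.68 ± 0.31 (adjusted p = 4.41e-08, limma). Ankrd2, a further titin-binding ankyrin repeat protein, gave 5403, 3454 and 4836 after contraction, against 1319, 480.4 and 430.4 in controls. In each of the 4 the lowest contraction array lay above the highest control. After freezing at 6 hours Ankrd1 gave 6339, 5740 and 5616, and Xirp1 gave 13122, 16126 and 12249. Csrp3 gave 1767, 3571 and 2717, and Ankrd2 gave 3296, 2652 and 3915. These values also lay above every control, though freezing was not tested against control. None of the 4 was called between the injuries, and Csrp3 came nearest (1.34, adjusted p = 0.0718, limma). The Z-disc proteins Tcap, Myoz1, Ldb3 and Des differed by 0.16, 0.02, -0.08 and -0.01, and none was called.

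Of 32 tested genes of the actin cytoskeleton and of SRF, the factor that answers actin dynamics, 2 rose and the median was 0.20. Ccn1, a matricellular protein induced by strain, gave 1299, 1022 and 963.7 after contraction, against 53.8, 61.3 and 45.9 in controls. The tubulin Tubb6 gave 928.4, 1309 and 1144 after contraction, against 250.1, 208.4 and 146.1 in controls, a difference of 2.43 ± 0.60 (adjusted p = 0.0365, limma). Leaving out any 1 of the 6 arrays ended the call of Tubb6, with adjusted p of 0.0705 to 0.163 and differences of 2.23 to 2.59. Vcl, which links actin to adhesion sites, gave 1068, 838.5 and 983.9 after contraction, against 516.5, 505.9 and 776.2 in controls (0.69 ± 0.21, adjusted p = 0.123), and was called without control 3 (0.89, adjusted p = 0.0425, limma).

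No call was made in the lists of the dystrophin complex, the contractile genes or calcium release. None of 24 tested genes of the dystrophin complex and membrane repair was called, with a median of -0.10. Dmd, which encodes dystrophin, gave 31.7, 50.8 and 25.9 after contraction, against 32.7, 59.0 and 67.9 in controls. Dag1, its partner in the membrane, gave 1181, 981.5 and 1007 after contraction, against 1278, 1303 and 1299 in controls, a difference of -0.29 ± 0.17 (adjusted p = 0.624, limma). None of 23 contractile genes was called, with a median of 0.03, nor any of 23 genes of calcium release and the excitable membrane, with a median of -0.15. The fast myosin heavy chain Myh4 averaged 18719 after contraction and 21237 in controls, and the calcium release channel Ryr1 averaged 6589 after contraction and 7184 in controls. No energy gene was called either. The counts were 0 of 29 in glucose and glycogen use, 0 of 41 in fat oxidation and the TCA cycle and 0 of 45 respiratory chain subunits, with medians of -0.08, -0.09 and 0.08. Without freeze array 436, 1 member each of the glucose and the fat oxidation lists was called higher, and 1 of the dystrophin list lower. With only the 6 arrays in the fit, 1 member each of the same 2 energy lists was called higher. Over all genes tested 1.71% rose and 0.304% fell, so few or no calls are usual in lists of this size. A p that misses the threshold does not show that these levels were equal.

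Of 25 tested metallothioneins and NRF2 antioxidant genes 3 rose and none fell, with a median of 0.16. Mt2 gave 4968, 8706 and 5214 after contraction, against 246.3, 253.5 and 240.5 in controls. Mt1 gave 2611, 3637 and 1070 after contraction, against 118.7, 110.2 and 84.1 in controls, a difference of 4.23 ± 0.52 (adjusted p = 1.34e-05, limma). Both encode small proteins that bind zinc, and both were highest on array 431. Srxn1, which restores oxidised peroxiredoxins and is a target of NRF2, gave 2743, 1641 and 1392 after contraction, against 37.5, 60.4 and 27.4 in controls. A second probe set of Srxn1 averaged 74.6 after contraction and 87.4 in controls and did not follow. The NRF2 targets Nqo1, Gclm and Gclc differed by -0.35, -0.52 and -0.76 and were not called. Hmox1, which breaks down haem, gave 546.0, 1017 and 656.5 after contraction, against 401.1, 272.1 and 355.7 in controls. Its groups did not overlap, but the difference was not called (1.05 ± 0.43, adjusted p = 0.349), except without freeze array 436 (adjusted p = 0.00532, limma).

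Calls differed among the myogenic regulatory factors. Of 26 tested members of the myogenic list 4 rose and 1 fell, with a median of 0.18, and without array 431 2 rose and none fell. Myod1, the factor that commits cells to the muscle lineage, gave 2224, 2197 and 1649 after contraction, against 334.0, 220.8 and 266.4 in controls. Myf6, the member kept on in mature fibres, gave 2615, 2484 and 2111 after contraction, against 414.4, 363.7 and 210.6 in controls, a difference of 2.87 ± 0.35 (adjusted p = 1.34e-05, limma). Both were separated from the controls on every array. Myog, the factor of terminal differentiation, gave 300.1, 264.1 and 225.5 after contraction, against 135.0, 118.9 and 143.8 in controls. Its groups did not overlap either, but it was not called (0.92 ± 0.57, adjusted p = 0.652), nor without freeze array 436 (adjusted p = 0.0894, limma). Six4, a homeodomain factor that acts upstream of them, gave 89.3, 69.6 and 69.2 after contraction, against 198.1, 152.2 and 149.5 in controls, a difference of -1.01 ± 0.25 (adjusted p = 0.0347). The other 2 rises were Id3, an inhibitor of MyoD-type factors, and Sdc4, a satellite cell syndecan, at 0.99 and 0.95 (adjusted p = 0.0448 and 0.0139, limma). Six4 and Id3 were not called without any 1 of the 6 arrays, with adjusted p of 0.0542 to 0.152 and 0.0553 to 0.196, and Sdc4 not without array 431, control 2 or control 3, with adjusted p of 0.0641 to 0.0946. The other 2 probe sets of Six4, which were dimmer, differed by -0.61 and -0.45 and were not called.

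Chemokine signals differed widely among the contraction arrays. Of 28 tested cytokines and chemokines 3 rose, and the median was 0.46, but none of the 28 was called without array 431. With array 431 kept and freeze array 436 left out of the shared spread, 6 of the 28 were called higher. The adjusted p was then 1.51e-06 for Ccl2, 0.0169 for Cxcl1 and 0.00172 for Cxcl10 (limma). The summed signal of the 28 was 2289, 4722 and 2334 on the contraction arrays, against 1871, 1782 and 1952 on the controls. Ccl2, which draws monocytes, gave 129.1, 618.9 and 184.5 after contraction, against 4.6, 13 and 5.5 in controls, a difference of 3.68 ± 0.86 (adjusted p = 0.0229, limma). All contraction arrays lay above all controls. Without array 431 the difference was 3.04 (adjusted p = 0.166), and without any 1 of the controls the adjusted p was 0.0541 to 0.0877. Cxcl1, which draws neutrophils, gave 100.7, 716.7 and 97.9 after contraction, against 43.6, 35.5 and 29.6 in controls. Its difference was 2.10 (adjusted p = 0.035) with array 431 and 1.20 (adjusted p = 0.221) without it, and leaving out any 1 of the controls gave an adjusted p of 0.0749 to 0.14. Cxcl10, an interferon-induced chemokine, went the other way among the arrays, with 83.5, 43.9 and 68.3 after contraction, against 6.4, 18.2 and 3.6 in controls (1.82 ± 0.47, adjusted p = 0.0448, limma). Leaving out any array but control 2 ended its call, with adjusted p of 0.061 to 0.196.

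Part of the inflammatory genes stood far higher on array 431 than on the other contraction arrays. Over all genes tested, 35.6% were highest on array 431 among the contraction arrays. Of the 28 cytokines and chemokines 15 were highest and 6 lowest there among the contraction arrays, and 7 were at least 2-fold above all 5 other arrays. Of the 11 tested neutrophil markers 7 were highest and 2 lowest there, and 4 were at least 2-fold above the other 5 arrays. Of 23 macrophage and monocyte markers the counts were 13, 5 and 4. Il1b, an early cytokine of leukocytes, gave 10.0, 277.2 and 5.9 after contraction, against 9.6, 6.2 and 16.1 in controls. Il6 gave 26, 209.7 and 31.1 after contraction, against 2.9, 14.8 and 15.7 in controls. S100a8 and S100a9, the pair of calcium-binding proteins that fill neutrophils, gave 802.6 and 480.4 on array 431, but 52.6 and 32.0 on array 417 and 67.5 and 26 on array 445, against 22.5 to 36.2 and 4.8 to 16.6 in controls. None of the 4 was called with all arrays, though S100a8 was without array 417 (2.66, adjusted p = 0.0436) and S100a9 without array 445 (2.62, adjusted p = 0.0446, limma). Not all neutrophil markers shared this. The granule enzyme gene Mpo gave 45.2, 29.2 and 75.7 after contraction, against 41.9 to 60.8 in controls. Over the 11 markers, S100a8 and S100a9 included, the summed signal was 766.9, 2334 and 810.0 on the contraction arrays, against 1024, 733.8 and 790.6 in controls. Over 23 macrophage and monocyte markers it was 1558, 2369 and 1408 on the contraction arrays, against 1427, 1201 and 1092 in controls. No marker of either list was called with all arrays. Cd68, a general macrophage marker, gave 135.7, 148.6 and 113.0 after contraction, against 71.5, 35.2 and 73.3 in controls. Its groups did not overlap, and it was called without freeze array 436 (adjusted p = 0.00423, limma). Ptprc, carried by all leukocytes, gave 27.6, 20.1 and 10.1 after contraction, against 7.6, 15.2 and 1.0 in controls. No tested marker of either list was at 0 on any of the 6 arrays, but without detection calls this does not show that a marker was present. The lowest control signals of Ptprc and Cd53, at 1.0 and 1.9, lay under the 13 units added. The part of these cells in the chemokine values was not tested. Of all genes tested, 52 were at least 2-fold above the other 5 arrays on array 431 with a signal of 50 or more. The same held for 7 genes on array 417 and 16 on array 445.

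Socs3, the feedback inhibitor of interleukin 6 signalling, was the 1 member called of 34 in the interleukin 6 and NF-kappaB list. It gave 161.3, 439.1 and 137.0 after contraction, against 60.3, 55.8 and 35.3 in controls, a difference of 1.87 ± 0.35 (adjusted p = 0.00249, limma), and stayed called without array 431. Nfkbia, the inhibitor that NF-kappaB induces, averaged 475.5 after contraction and 341.4 in controls (0.49 ± 0.19, adjusted p = 0.31), and a dimmer probe set was called (0.80, adjusted p = 0.0197). None of the other 11 lists of cell type markers, for lymphocytes, mast cells, vessels, connective tissue, nerve, fat, skin and blood among others, held a called gene. With 1.71% of all genes called higher and 0.304% lower, short lists often hold none.

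**Figure D3:**
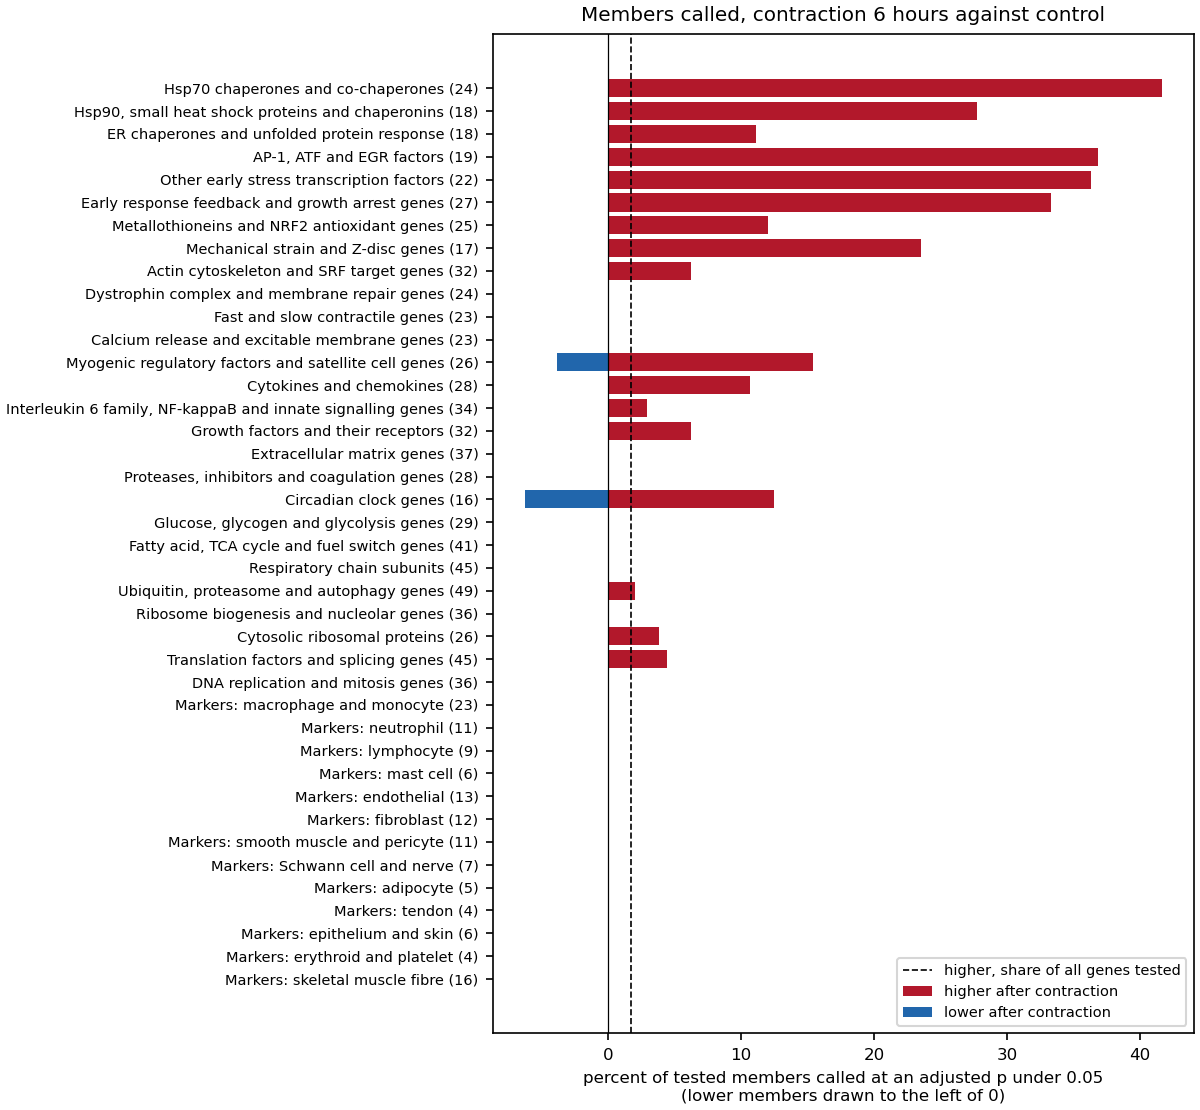
Percent of the tested members of each list called at an adjusted p under 0.05, with the number tested in brackets. Red bars are members higher after contraction and blue bars members lower than in control. The dashed line is the 1.71% of all genes tested that rose. Hsp70, AP-1 and early response lists extend beyond 30%, and 13 lists of cell type markers hold no call.

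Among growth factors 2 of 32 tested rose, both ligands. Hbegf, a membrane-bound ligand of the EGF receptor, gave 858.5, 494.2 and 378.1 after contraction, against 114.9, 102.0 and 100.4 in controls. Fgf1, an FGF without a secretion signal that damaged fibres can release, gave 793.6, 446.0 and 292.5 after contraction, against 64.2, 142.2 and 97.6 in controls, a difference of 2.14 ± 0.38 (adjusted p = 0.0016, limma). Both were highest on array 417 and kept apart from the controls. None of the 37 tested matrix genes and none of 28 proteases, inhibitors and coagulation genes was called, with medians of -0.07 and 0.17, nor any of 36 replication and mitosis genes, with a median of -0.01. These counts stand beside shares of 1.71% higher and 0.304% lower over all genes tested. Without freeze array 436, 1 matrix gene was called lower and 2 members of the protease list higher.

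The clock list held calls in both directions, 2 rises and 1 fall among 16 tested members, with a median of 0.03. Over all genes tested the shares were 1.71% higher and 0.304% lower. No time of day is given here for the samples, and its part in these values was not tested. Nfil3, a repressor that competes with Dbp for the same sites, gave 695.9, 601.2 and 636.7 after contraction, against 67.1, 43.8 and 57.0 in controls, a difference of 3.26 ± 0.28 (adjusted p = 4.41e-08, limma). Its second probe set was also called. Dbp, an activator with a daily rhythm, gave 56.2, 49.9 and 94.2 after contraction, against 195.9, 349.5 and 354.7 in controls (-1.97 ± 0.40, adjusted p = 0.00688). Without array 431 it fell short of the threshold (-1.82, adjusted p = 0.0507). After freezing at 6 hours Dbp gave 35.9, 10.6 and 9.3, below every contraction array, a difference that was not called (1.39, adjusted p = 0.201, limma). Arntl, the clock activator also called Bmal1, gave 229.9, 255.8 and 212.6 after contraction, against 98.3, 75.2 and 89.3 in controls (1.29 ± 0.28, adjusted p = 0.0126). It was not called without array 431 or control 2, with adjusted p of 0.0709 and 0.07. The repressors Per1, Per2 and Cry1 differed by 0.76, 0.89 and 0.55 and were not called.

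Lists of protein turnover and synthesis held few calls, to be read beside the 1.71% of all genes that rose. Gabarapl1, a protein of autophagosome membranes, gave 1057, 957.8 and 821.0 after contraction, against 302.3, 274.1 and 226.2 in controls, a difference of 1.77 ± 0.19 (adjusted p = 1.18e-06, limma). It was the only called member of 49 in the ubiquitin, proteasome and autophagy list, in which the median was -0.01. Psmd11, a subunit of the proteasome lid, differed by 0.32 in its brightest probe set, which was not called, and by 1.13 in another, which was. Of 36 ribosome biogenesis genes none was called, though 1 was called lower without freeze array 436. Of 26 ribosomal protein genes 1 was called, Rpl37a (0.80 ± 0.19, adjusted p = 0.029). The splicing factors Tra2b and Sf3b1 were the 2 called of 45 translation and splicing genes, at 1.17 and 0.89 (adjusted p = 0.025 and 0.0314, limma). None of these 3 was called without array 431, and each lost its call without 3 or 4 further arrays, with adjusted p of 0.0525 to 0.15 for Rpl37a, 0.061 to 0.168 for Tra2b and 0.0592 to 0.166 for Sf3b1.

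Of the 118 genes that rose 54 were in no list. The largest of them was Phlda1, a pleckstrin-like protein of early response, with 908.7, 920.4 and 903.6 after contraction, against 23.5, 19.4 and 22.3 in controls. Its replicates were almost equal, and the difference was 4.74 ± 0.31 (adjusted p = 7.63e-10, limma). Next came Enah, which lengthens actin filaments, with 3884, 2398 and 2353 after contraction, against 172.9, 194.5 and 133.1 in controls. All 3 probe sets of Enah were called, at 3.98, 1.87 and 3.69. Sesn1, a stress-induced inhibitor of mTORC1 signalling, gave 896.0, 853.1 and 585.2 after contraction, against 279.7, 248.0 and 176.7 in controls (1.67 ± 0.25, adjusted p = 0.00015).

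Of the 21 falls 2 were in a list, Dbp and Six4. Tarbp2, a partner of Dicer, gave 24.9, 88.1 and 44.8 after contraction, against 167.9, 197.9 and 132.1 in controls (-1.55 ± 0.37, adjusted p = 0.029). Adcy3, an adenylyl cyclase, gave 18.8, 85.2 and 23.1 after contraction, against 121.3, 92.6 and 122.2 in controls (-1.36 ± 0.35, adjusted p = 0.0474). Plxnd1, a semaphorin receptor of vessels, gave 71.4, 97.9 and 141.0 after contraction, against 225.7, 235.1 and 296.9 in controls (-1.22 ± 0.30, adjusted p = 0.0347). Atg16l1, which acts in autophagosome formation, gave 55.2, 19.3 and 37.6 after contraction, against 104.0, 111.8 and 68.7 in controls (-1.14 ± 0.27, adjusted p = 0.0248, limma). Leaving out at least 4 of the 6 arrays, 1 at a time, ended each of these 4 calls, with adjusted p of 0.0916 to 0.192 for Tarbp2, 0.0781 to 0.261 for Adcy3, 0.0691 to 0.193 for Plxnd1 and 0.0581 to 0.199 for Atg16l1. The other falls of the 10 largest were Ap5s1, Hdhd5, Ilvbl, 2700097O09Rik and Slc9a3r2, at -1.29, -1.25, -1.21, -1.17 and -1.17. Ilvbl was not called without array 431 (-0.94, adjusted p = 0.096), and each of the other 4 lost its call without 4 or 5 of the arrays, with adjusted p between 0.0514 and 0.209.

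Set directly against freeze at 6 hours, contraction differed in few genes, with 5 higher, 0.0723% of the genes tested, and 19 lower, 0.275%. Over all probe sets 29 were called, 0.305%. No control array stands in this contrast, though all 25 arrays enter the shared estimate of the spread. With only the 6 arrays of both injuries in the fit 1 probe set was called. With their adjacent sample numbers (417 and 418, 431 and 432, 445 and 446) as a random block 17 were called. Without both array 431 and array 432, a choice made after their values had been seen, 29 genes were higher and 54 lower, and the 29 probe sets called with all arrays were all among the 109 then called. Both arrays lay between the injuries, so leaving them out tends to widen the differences and cannot serve as support for them. Values without this pair are given as description only. Dnajb1 gave 5870, 3607 and 3761 after contraction and 126.8, 2986 and 85.2 after freezing, a difference of 3.64 ± 0.72 (adjusted p = 0.03), and of 5.33 without both arrays (adjusted p = 3.48e-09, limma). Freeze arrays 418 and 446 lay nearer to the controls, which held 58.8 to 66.4, than to any contraction array. Dnaja1 gave 4089, 2825 and 3884 after contraction and 595.8, 3157 and 339.3 after freezing, and Hsp90aa1 gave 11114, 4704 and 11726 after contraction and 2049, 4693 and 1639 after freezing. Neither was called with all arrays (adjusted p = 0.0718 and 0.184), and both were without the pair (3.11, adjusted p = 7.85e-06, and 2.63, adjusted p = 0.0139). Hspa1b gave 3366, 8044 and 461.9 after freezing, and its difference of 2.13 (adjusted p = 0.255) was 3.07 without the pair (adjusted p = 0.0376, limma).

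Jun, Sesn1 and Enah also stood higher after contraction than after freezing. Jun gave 164.8, 206.9 and 111.0 after freezing, below all contraction arrays (1.51 ± 0.28, adjusted p = 0.0207). Sesn1 gave 246.3, 401.8 and 224.2 after freezing (1.40 ± 0.25, adjusted p = 0.0206). Enah gave 425.0, 2139 and 613.1 after freezing (1.74 ± 0.38, adjusted p = 0.0494, limma). Without arrays 431 and 432 the differences were 1.93, 1.57 and 2.54 (adjusted p = 0.00189, 0.00453 and 6.77e-05). Leaving out 1 of arrays 417, 418 or 446 ended the calls of all 3, as did array 445 for Jun and Enah and array 431 for Enah. The adjusted p was then 0.0917 to 0.245 for Jun, 0.0917 to 0.203 for Sesn1 and 0.058 to 0.347 for Enah. Dnajb1 lost its call without array 417, 445, 418 or 446, with adjusted p of 0.153 to 0.294.

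Of the 19 genes lower after contraction than after freezing 9 were in the cytokine, the interleukin 6 and NF-kappaB or the neutrophil list, and 4 were in no list. S100a9 gave 32.0, 480.4 and 26 after contraction and 1125, 831.1 and 1431 after freezing (-3.55 ± 0.63, adjusted p = 0.0207). S100a8 gave 52.6, 802.6 and 67.5 after contraction and 1447, 1475 and 2644 after freezing (-3.46 ± 0.63, adjusted p = 0.0207, limma). The groups did not overlap, and array 431 was the highest of the contraction arrays. Il1b, Cxcl5, Hdc and Cxcl2 were lower after contraction as well, by differences of -3.29, -2.95, -2.60 and -2.28 (adjusted p = 0.03, 0.03, 0.0369 and 0.0371), as were the NF-kappaB cofactor Bcl3 (-2.26, adjusted p = 0.0451) and the matrix protease Mmp3 (-2.22, adjusted p = 0.00864). Without arrays 431 and 432 all 8 differences were larger, between -2.62 and -4.94, which the choice of arrays itself favours. Each of the 8 lost its call without array 417, 445, 418 or 446, Bcl3 also without array 431, with adjusted p from 0.0513 to 0.325. Ccl2 gave 1395, 877.9 and 2394 after freezing and was not called (-2.47 ± 0.86, adjusted p = 0.337). Ankrd1 averaged 7123 ± 480 after contraction and 5898 ± 387 after freezing (SD, n = 3 each), which differed by 0.27 (adjusted p = 0.893, limma).

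**Figure D4:**
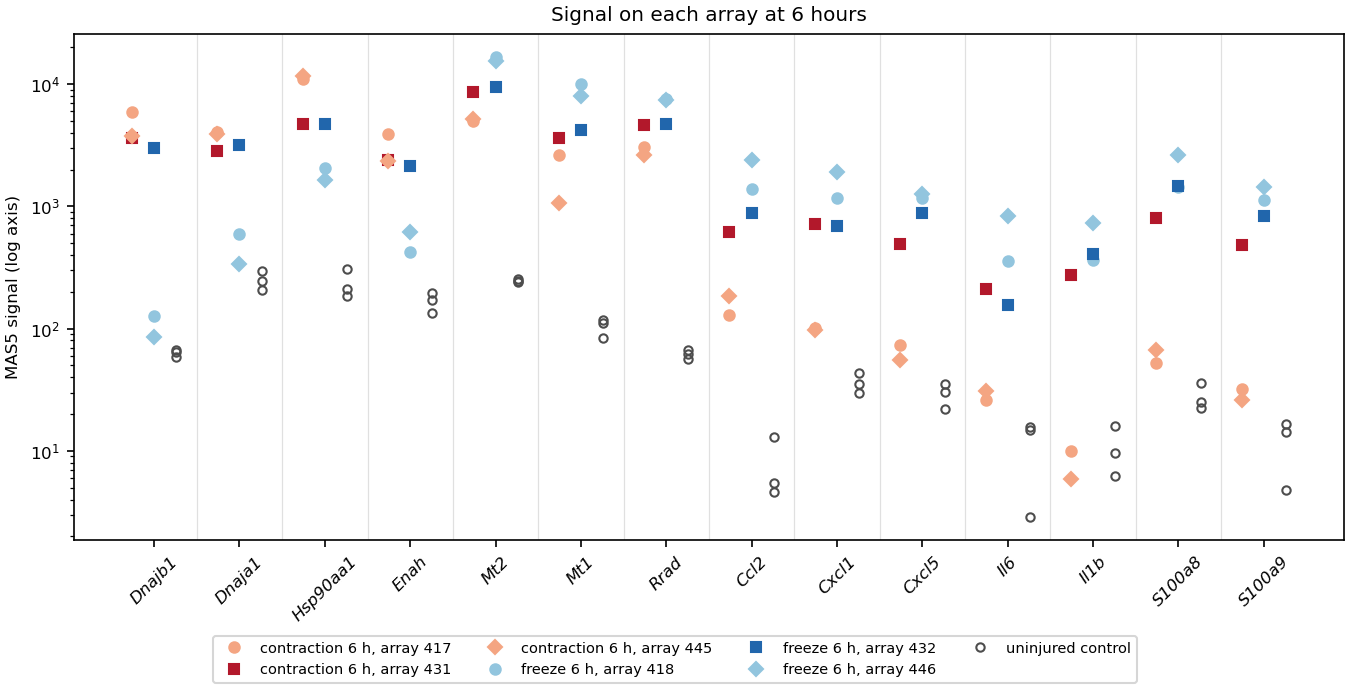
MAS5 signal (log axis) on each array at 6 hours for chaperone, metallothionein, chemokine and neutrophil genes. For each gene, red shades on the left are contraction, blue shades in the middle freeze and open circles on the right uninjured control. The dark squares are contraction array 431 and freeze array 432. For Cxcl1 they stand at 716.7 and 692.1, between 97.9 to 100.7 on the other contraction arrays and 1178 to 1912 on the other freeze arrays.

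In a direct comparison of 6 hours with 1 day after contraction no gene was called higher, and 4 were lower, 0.0578% of the genes tested. The later group held 2 arrays, and with only the groups compared in the fit none was called. Over the 118 genes that rose at 6 hours the median difference between these times was 0.26 on the log2 scale. That most were not called here does not show that their levels were equal, and 1 day was not tested against control. Tmem43, a protein of the inner nuclear membrane, gave 147.3, 111.2 and 70.3 at 6 hours and 364.6 and 452.1 at 1 day (-1.82 ± 0.25, adjusted p = 0.0032). Mmp10, a stromelysin, gave 39.4, 17.4 and 41.2 at 6 hours and 177.6 and 227.4 at 1 day (-2.28 ± 0.40, adjusted p = 0.0379). It had already risen at 6 hours over controls, which held 1.3 to 3.4 (1.52, adjusted p = 0.0248), a call that was lost without any 1 array but 431 (adjusted p of 0.0628 to 0.122). Sema3b, a secreted semaphorin, gave 8.6, 11.6 and 12.2 at 6 hours and 89.0 and 76.9 at 1 day (-2.01 ± 0.34, adjusted p = 0.0287). Mybph, a myosin-binding protein, gave 1319, 605.0 and 789.2 at 6 hours and 2937 and 3671 at 1 day (-1.92 ± 0.35, adjusted p = 0.0455, limma). The last 3 lost these calls without either array at 1 day, with adjusted p of 0.225 to 0.652, and without 2 or 3 of the arrays at 6 hours, with 0.0725 to 0.265. Tmem43 was not called without array 463 of the later time (adjusted p = 0.288).

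Over the later times the early genes declined at different paces. Hspa1b averaged 30.7 in controls, 10289 at 6 hours and 10728 at 1 day, followed by 932.2 on day 3 and 42.0 on day 7. Dnajb1 averaged 63.3 in controls, 4413 at 6 hours and 2594 at 1 day, followed by 89.6 on day 3 and 55.3 on day 7, so that its mean at 3 days was above and at 7 days below the controls, which spanned 58.8 to 66.4. Fos averaged 39.0 in controls, 5540 at 6 hours and 2920 at 1 day, followed by 355.2 on day 3 and 76.9 on day 7. Ankrd1 averaged 124.0 in controls, 7123 at 6 hours and 5280 at 1 day, followed by 4004 on day 3 and 770.3 on day 7. Csrp3 averaged 523.6 in controls, 6615 at 6 hours and 9380 at 1 day, followed by 3032 on day 3 and 1245 on day 7. Its difference between 6 hours and 1 day was not called (-0.52, adjusted p = 0.955). Dbp averaged 300.0 in controls, 66.8 at 6 hours and 105.5 at 1 day, followed by 167.9 on day 3 and 244.8 on day 7. These courses are levels and were not tested beyond the comparison with 1 day.

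**Figure D5:**
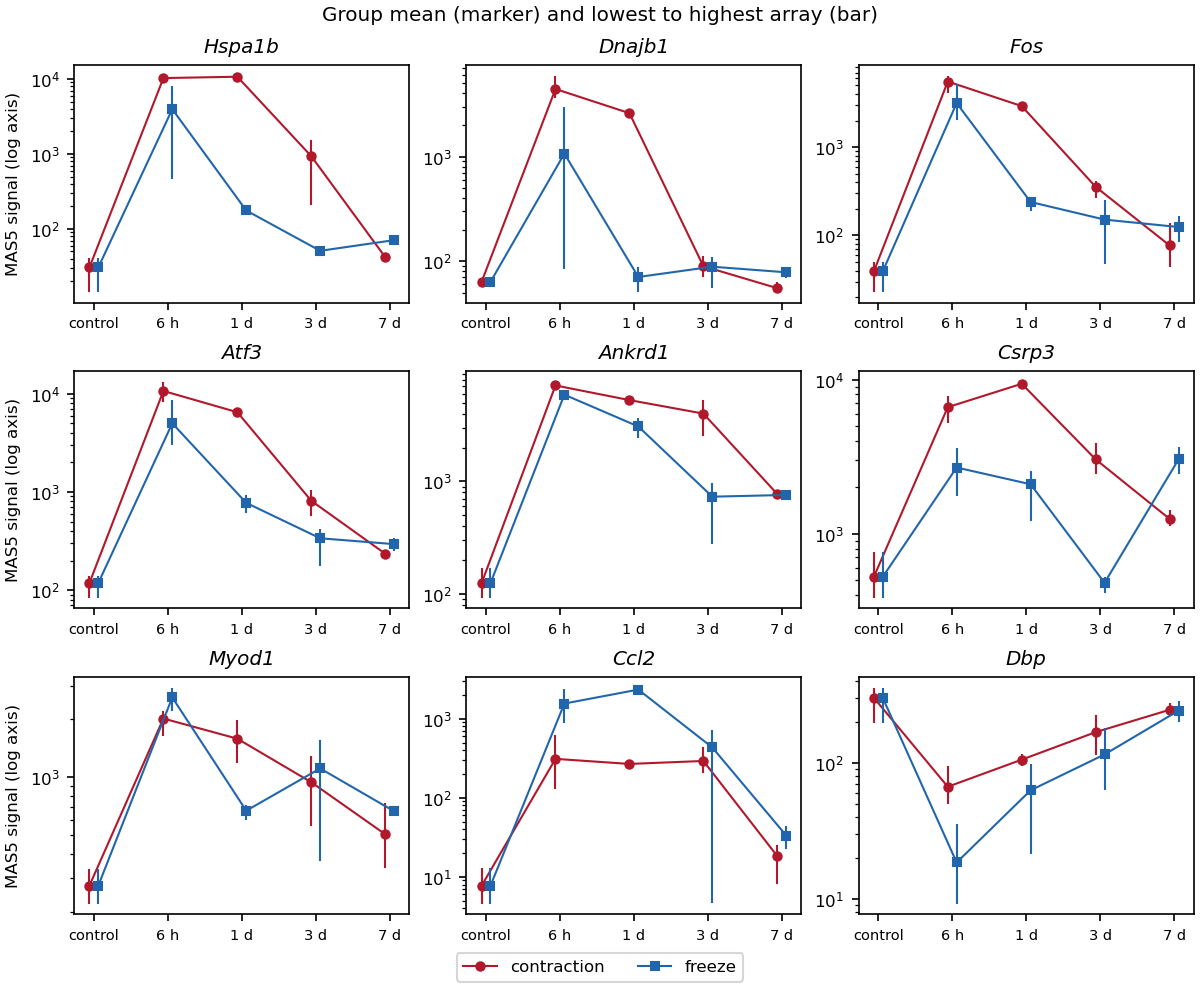
Mean MAS5 signal (log axis) of 9 genes in uninjured control and at the 4 times from 6 hours to 7 days after contraction (red circles) or freezing (blue squares). Bars run from the lowest to the highest array of a group of 2 or 3, and the freeze group at 3 days holds array 436. Dnajb1 is high after contraction at 6 hours and 1 day, at means of 4413 and 2594, while the freeze arrays at 6 hours span 85.2 to 2986.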

How the data were processed

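RNA from tibialis anterior was measured on 1-colour Affymetrix arrays. The deposited values are intensity signals, which the authors produced by MAS5, per the submitters' processing notes. They are linear and there is 1 for each probe set. Neither the MAS5 version nor detection calls appear in the labels. With 2% trimmed from both ends, the arrays' means were 150.09 to 150.13, so every change is relative to the bulk of its array. Precision is limited by the number of arrays.

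Gene names came from the platform's annotation, updated through RefSeq. Of 12488 probe sets 66 were Affymetrix controls, 396 carried several symbols and 1193 none here. The brightest probe set by mean log2 value stands for a gene. Before log2, 13 units were added, which is the 20th percentile of the whole table. Testing required a signal over an array's 40th percentile on 2 arrays or more. limma 3.58.1 (R 4.3.3) fitted 9 group means to the 25 arrays (lmFit, then eBayes with a trend), leaving 16 residual and 5.46 prior degrees of freedom. Tests were two-sided, with Benjamini-Hochberg adjustment in each comparison. The code was tested on simulated data with known changes.

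Genes were named by rule. From the comparison with control came the 20 largest rises and 10 largest falls that were called, changed at least 2-fold and had groups without overlap. The other 2 comparisons gave up to 8 in each direction in the same way. Each list gave up to 4 called rises, 3 called falls and its marked representatives. Further members named beside them were picked after their values were seen. The members and lists were chosen with earlier results of these data known. Lists have counts and medians but no test. Motifs were searched in RefSeq promoters (GRCm38.p6). The closing section gives the effect of other pseudocounts, scalings, filters, thresholds and limma settings, and of leaving out arrays. Leaving out arrays 431 and 432 together was added once their values were known.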

Additional observations from a re-analysis of the deposited data

Results flagged for a closer look

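Genes whose level after contraction differed from that after freezing at 6 hours, by the test of the difference itself, numbered 29 as probe sets. By gene, 5 were above and 19 below, and only those that the naming rule picked are given here. Picked among those above were Dnajb1 (3.64), Enah (1.74), Jun (1.51) and Sesn1 (1.40), in log2 units of contraction minus freeze. Picked among those below were S100a9 (-3.55), S100a8 (-3.46), Il1b (-3.29), Cxcl5 (-2.95), Hdc (-2.60), Cxcl2 (-2.28), Bcl3 (-2.26) and Mmp3 (-2.22). By the same test between 6 hours and 1 day after contraction Mmp10 (-2.28), Sema3b (-2.01), Mybph (-1.92) and Tmem43 (-1.82) were lower at 6 hours. Among 1018 tested probe sets with no symbol or several, which the text does not name, 12 were called for contraction against control, 10 higher and 2 lower.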

How the results depend on the processing

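No paired analysis was possible because the groups compared share no replicate numbers in the labels. Adjacent sample numbers, which no label calls pairs, were run as a random block in their place. For contraction against control the count of 178 probe sets became 319 without freeze array 436, 276 with array weights and 109 at an adjusted p under 0.01, was 128 to 153 when 1 array of either group was left out, and stayed within 1.5 times under the other settings, such as 137 with only the 6 arrays. Of 65 named genes called there, 40 kept call and direction under all 14 settings and all 6 omissions of an array, and none reversed. For contraction against freeze at 6 hours the 29 became 12 with a pseudocount of 1, 46 with one of 50, 17 without a filter, 1 with only the groups compared, 224 without array 436, 295 with array weights, 17 with adjacent sample numbers as a block, 2 at an adjusted p under 0.01, 0 to 83 with 1 array left out (0 without 446, 83 without 432) and 109 without 431 and 432. For contraction at 6 hours against 1 day the 4 became 1 with a pseudocount of 1, 2 with centring on the median, 1 with the stricter filter, 0 with only the groups compared, 50 without array 436, 48 with array weights, 1 at an adjusted p under 0.01, and 0 to 2 with 1 array left out. A lone array left in a group at 1 day was assumed to vary like the other groups. The cause of these shifts was not tested. Dim genes are limited by the pseudocount, and 3 arrays a group leave small differences undetected.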

Other observations

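Genes outside the lists that rose covered several functions and are named here after their values were seen. Clu, a secreted chaperone, averaged 1753 after contraction and 252.9 in controls (2.71, adjusted p = 8.07e-05, limma). Ifrd1, a transcriptional cofactor of muscle repair, averaged 1232 after contraction and 118.3 in controls (3.16, adjusted p = 9.61e-06). Slc38a2, an amino acid transporter that stress induces, averaged 1230 after contraction and 178.4 in controls (2.73, adjusted p = 4.5e-07). Azin1, which protects the polyamine enzyme Odc1 from breakdown, averaged 1301 after contraction and 293.8 in controls (2.13, adjusted p = 8.48e-05, limma). Selp, the selectin by which activated endothelium catches leukocytes, averaged 121.0 after contraction and 8.77 in controls (2.57, adjusted p = 9.87e-05).

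Among the contraction arrays, array 431 was the highest for 35.6% of all genes tested. Of 23 tested macrophage and monocyte markers 13 were highest and 5 lowest on array 431 among the contraction arrays, and 4 stood at least 2-fold above the other 5 arrays there. Of the 4, Cd14 is a receptor for bacterial products, and the other 3 follow. Tyrobp, a signalling adaptor of myeloid cells, gave 126.2 on array 431 and 22.8 to 54.0 on the other contraction arrays, against 4.2 to 28.2 in controls. Cd53, a tetraspanin of leukocytes, gave 63.0 on array 431 and 2.8 to 5.4 on the other contraction arrays, against 1.9 to 3.2 in controls. Clec4d, a lectin receptor of myeloid cells, gave 93.1 on array 431 and 6.2 to 13.1 on the other contraction arrays, against 1.8 to 14.0 in controls. Others went the other way: Fcer1g, a subunit of antibody receptors, gave 6.5 on array 431 and 9.8 to 20.7 on the other contraction arrays, against 17.1 to 24.2 in controls, and C1qc, a complement subunit, gave 175.1 on array 431 and 213.3 to 221.9 on the other contraction arrays, against 141.3 to 219.7 in controls.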
